A study of Saccharomyces cerevisiae with 9 samples.

Results

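The comparison described here set diploid budding yeast (Saccharomyces cerevisiae) that lacked both copies of SAM1 against wildtype, by RNA-Seq of polyadenylated RNA. It used the 3 sam1Δ/sam1Δ libraries and the 3 wildtype libraries of a series of 9, the other 3 being from sam2Δ/sam2Δ diploids. Genes entered the comparison when their normalized signal reached 10 or more in 3 or more of these libraries, which kept 6109 of the 7126 genes in the deposited table. The wildtype diploid had been grown in synthetic complete medium (SC) and the sam1Δ/sam1Δ diploid in SC with the antibiotic G418, both to mid-log phase at 30°C. All strains were MATa/MATα of the W303 background with the auxotrophic markers leu2-3, his3-Δ200, trp1-Δ1, ura3-52 and ade2-101, were heterozygous for lys2-801 and can1-100, and carried a pair of marked chromosome fragments used to follow chromosome loss. Each group was 1 strain, so the loss of SAM1, the antibiotic and any other difference between these strains cannot be told apart. The labels call the libraries of a group replicates without saying whether they came from separate cultures, so the P values measure the spread between these libraries.

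SAM1 and SAM2 encode the paralogous S-adenosylmethionine synthetases, which join methionine and ATP to make S-adenosylmethionine (AdoMet), the main methyl donor of the cell. After a methyl transfer AdoMet becomes S-adenosylhomocysteine, which is recycled through homocysteine to methionine in the methyl cycle. AdoMet also feeds polyamine and phosphatidylcholine synthesis, and it shares its sulfur supply with cysteine and glutathione. Loss of either gene is tolerated in yeast because the other paralog still supplies AdoMet.

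The deposited signal of a gene was its estimated read number divided by a library size factor. Total signal was 10.37 to 11.87 M (M, 1e6) over the 6 libraries, and the steps between low values put the depth at 9.31 to 23.8 M reads. In low values of genes alone at their locus, 100% fell within 0.05 of a whole number of such steps. One read was worth a signal of 0.443 to 1.21. Libraries did not group by strain. On the first principal component of the 6109 genes, which held 72.9% of the variance, wildtype replicate 1 and sam1Δ/sam1Δ replicates 2 and 3 lay on one side, and wildtype replicates 2 and 3 with sam1Δ/sam1Δ replicate 1 on the other. Only 1.35% of that component's variance was between strains, against 96.9% of the second component, which held 16.7%. Wildtype replicate 1 correlated across genes at a Spearman rho of 0.977 with sam1Δ/sam1Δ replicate 2 and of 0.885 with wildtype replicate 2. Genes are not independent replicates, so these correlations describe the libraries only.

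Named gene groups followed the shared axis. The median member of a list of 48 ribosome biogenesis genes stood at 1.26 on the log2 scale above its mean over the 6 libraries in wildtype replicate 1, and at -0.78 and -0.50 in wildtype replicates 2 and 3. In sam1Δ/sam1Δ replicates 1 to 3 the same list stood at -0.88, 0.55 and 0.38. A list of 29 general stress and reserve carbohydrate genes ran the other way, at -1.0, 0.84 and 0.58 in wildtype and 0.57, -0.53 and -0.38 in sam1Δ/sam1Δ. The main results that rest on wildtype replicate 1 are given with and without it. Leaving it out puts wildtype on 1 side of the first principal component, at scores of -30.2 and -22.2. The sam1Δ/sam1Δ libraries lie on both sides, at -25.7, 19.4 and 15.9. Strain and axis are therefore partly mixed in that fit, and its log2FC values and counts cannot be read as those of strain alone. A second fit used the axis (the first component of the deviations from the strain means) as a covariate, which left every log2FC as it was. That covariate was taken from the same values, so its P values are too small and are given only beside those of the main fit.

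**Figure D1:**
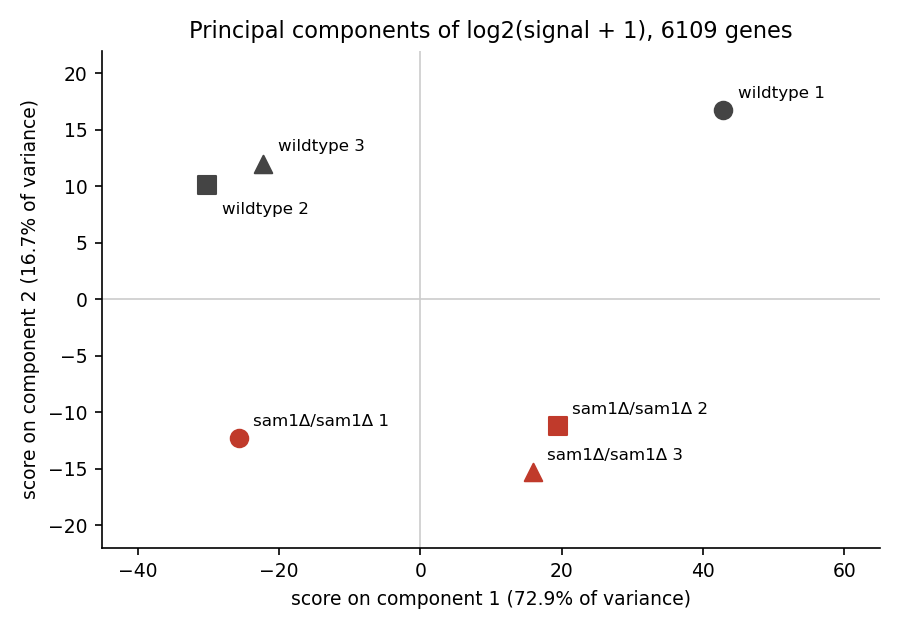
Positions of the 6 libraries on the first and second principal components of log2(signal + 1) over 6109 genes, with wildtype and sam1Δ/sam1Δ libraries in different colours. The strains are separated on the second component (16.7% of variance) and mixed on the first (72.9%), where wildtype replicate 1 lies with sam1Δ/sam1Δ replicates 2 and 3.

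The targeted gene checked the labels. SAM1 (chrXII:515262-516410) had signals of 17140.4, 6030.3 and 4589 in wildtype and of 1.06, 1.77 and 0 in sam1Δ/sam1Δ, which stand for 1, 4 and 0 reads. In the sam2Δ/sam2Δ libraries SAM1 was at 2417, 3519 and 3406. The Benjamini-Hochberg adjusted limma P for SAM1 was 0.001, with lower signal in 3 of 3 sam1Δ/sam1Δ libraries. The paralog SAM2 was at 39411, 17280.0 and 19627 in wildtype and 18932, 25482 and 22537 in sam1Δ/sam1Δ, and at 2.43, 4.36 and 6.89 in sam2Δ/sam2Δ. SAM2 did not pass the cutoffs (log2FC -0.10 ± 0.36, 95% interval -0.98 to 0.78), and its log2FC turned to 0.27 when wildtype replicate 1 was left out and to 0.01 when sam1Δ/sam1Δ replicate 1 was. The interval leaves room for a change of either sign in SAM2. The genes on either side of SAM1 were not called, YLR179C at a log2FC of 0.16 and VTA1, which acts in multivesicular body sorting, at 0.08.

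The coding sequences of SAM1 (1149 bases) and SAM2 (1155 bases) shared 956 aligned bases, 82.8% of the longer gene, so the reads behind these values had to separate close copies. The longest stretch identical between them was 59 bases, at chrXII:515961-516019 on the plus strand in SAM1 and chrIV:1453701-1453759 on the minus strand in SAM2, shown here as the limit to read assignment.
SAM1 and SAM2: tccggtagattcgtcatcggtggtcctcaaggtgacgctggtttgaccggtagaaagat
This stretch is shorter than a read of 75 bases. None of the 1075 windows of 75 bases in SAM1 (0) and none of the 1081 in SAM2 (0) occurred elsewhere in the R64 genome. The near-absence of SAM1 signal in sam1Δ/sam1Δ and of SAM2 signal in sam2Δ/sam2Δ was therefore measured on sequence that is not shared.

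Across all genes, 70 differentially expressed genes (DEGs) met both cutoffs of the study, an unadjusted limma P no higher than 0.05 and a log2FC of 0.58 or more in size. They were 1.15% of the 6109 genes tested. Of these, 38 (0.622%) were upregulated and 32 (0.524%) were downregulated in sam1Δ/sam1Δ. In all, 128 of the 6109 genes had an unadjusted P of at most 0.05, a share below the 0.05 that this cutoff allows when no gene changes. After Benjamini-Hochberg adjustment over all genes, limma called 6 genes (0.0982%), and the other 64 DEGs had adjusted P values of 0.089 or more. The DEGs other than those 6 are therefore candidates by the study's own cutoffs and not calls at a controlled false discovery rate. On simulated data of this design, 83.5% of 200 genes changed by 1 on the log2 scale met both cutoffs, as did 3.16% of unchanged genes. The simulated noise was drawn separately for each gene. In the measured libraries the shared axis held 87.2% of the variance within strains. The simulated shares can therefore not be set against the 1.15% seen over the measured genes, nor be read as the rate of detection in these libraries.

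The number of DEGs depended on single libraries. Without wildtype replicate 1, 370 genes (6.06%) met both cutoffs, 180 upregulated (2.95%) and 190 downregulated (3.11%), and 61 of the 70 DEGs were among them. That fit partly mixes strain with the shared axis. Leaving out sam1Δ/sam1Δ replicate 1 gave 116 DEGs, and leaving out sam1Δ/sam1Δ replicate 3 gave 39. In all 6 such fits 34 of the 70 DEGs were called. With the shared axis as a covariate 160 genes (2.62%) met both cutoffs, all 70 DEGs among them, and 74 (1.21%) passed an adjusted P of 0.05. Signals did not overlap between the strains for 63 of the 70 DEGs, against 399 of all genes tested (6.53%). The DEGs were chosen on these same signals, so this count describes them and adds no support to the calls.

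**Figure D2:**
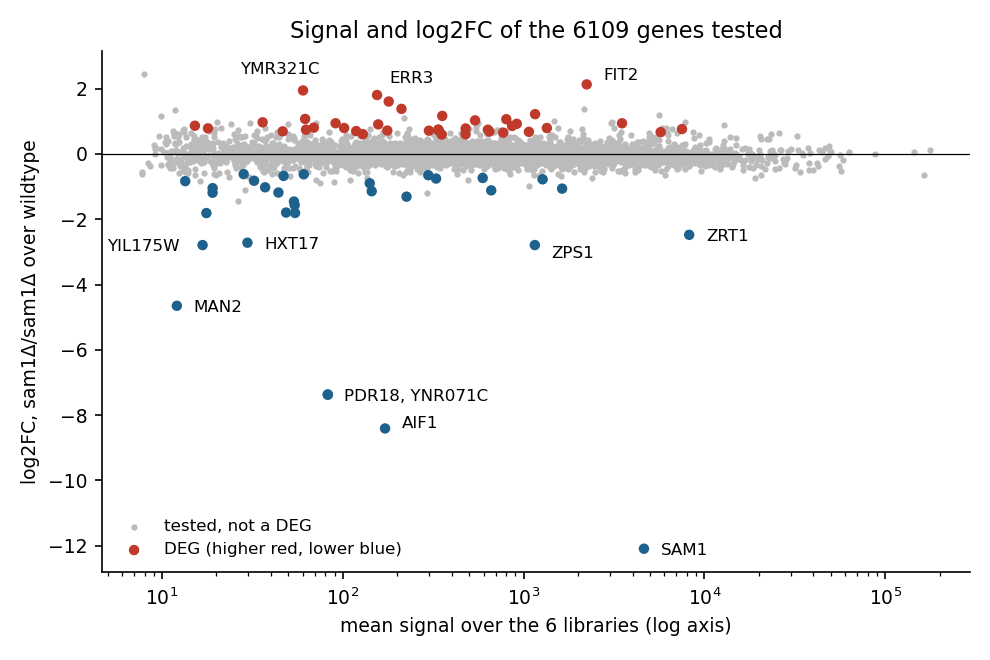
log2FC of sam1Δ/sam1Δ against wildtype (y axis) against mean signal over the 6 libraries (x axis, log scale) for 6109 genes, with the 70 DEGs coloured by direction and 12 of them named. SAM1 and the 4 genes listed at 0 in every sam1Δ/sam1Δ library lie lowest, and their distance from 0 depends on the pseudocount of 1.

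Besides SAM1, the genes called after adjustment were 5 neighbours near the right end of chromosome XIV, and each lost most or all of its signal. PDR18 (chrXIV:765375-769376), an ABC transporter linked to sterol content and drug tolerance, was at 149, 188 and 158 in wildtype and was listed at 0 in each sam1Δ/sam1Δ library. YNR071C (chrXIV:770440-771468), which resembles aldose epimerases, fell from 172, 152 and 172 to listed values of 0 in the same way. MAN2 (chrXIV:774792-776300), a mannitol dehydrogenase, was at 24.1, 23 and 25.3 in wildtype and likewise at 0. AIF1 (chrXIV:777602-778738), a mitochondrial protein with a role in cell death, had 338, 282 and 407 in wildtype and 0 in sam1Δ/sam1Δ. The 4 genes stood for 646, 675, 98 and 1427 reads over the wildtype libraries and for 0 reads over those of sam1Δ/sam1Δ. They were the 4 genes of the table listed at 0 in every sam1Δ/sam1Δ library and at 10 or more in every wildtype library, and 0 genes showed the reverse. The limma adjusted P was 0.00014 for PDR18, 0.00014 for YNR071C, 0.00014 for AIF1 and 0.0081 for MAN2.

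HXT17 (chrXIV:772657-774351), a hexose and polyol transporter between YNR071C and MAN2, had lower signal but was not listed at 0. Its signals were 50.7, 59.4 and 46.4 in wildtype and 8.50, 7.53 and 5.40 in sam1Δ/sam1Δ (log2FC -2.72, limma adjusted P = 0.035), and its sam1Δ/sam1Δ mean was 13.7% of the wildtype mean. Of the 75-base windows in HXT17, 13.4% also occurred elsewhere in the genome, mostly in HXT13. For MAN2 this share was 46.8%, all with DSF1, and for PDR18, YNR071C and AIF1 it was 0%. The loss in PDR18, YNR071C and AIF1 was therefore measured on unshared sequence. HXT13 was at 29.8, 48.7 and 57.8 in sam1Δ/sam1Δ. Whether the remaining HXT17 signal came from HXT17 itself or from reads of such copies was not tested.

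The genes on both sides kept their signal. BSC5 (chrXIV:761123-762592), the nearest gene toward the centromere, was at 225, 1057 and 566 in wildtype and 699, 360.2 and 391 in sam1Δ/sam1Δ. COS10 (chrXIV:779916-781040), the nearest expressed gene toward the end of the chromosome and a member of a family that promotes turnover of membrane proteins, was at 1447, 552 and 478 in wildtype and 406, 905 and 820.0 in sam1Δ/sam1Δ. No 75-base window of BSC5 or of COS10 occurred elsewhere (0%). The stretch between BSC5 and PDR18 was 2782 bases (chrXIV:762593-765374), and the start of PDR18 lay 18959 bases from the end of the chromosome in R64. The small gene YNR075C-A, beyond COS10, was under the filter, with 18.9, 4.85 and 5.43 in wildtype and 0 throughout sam1Δ/sam1Δ. PAU6 was listed at 0 in all 6 libraries.

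The 5 genes had signal in the sam2Δ/sam2Δ libraries, with 152, 185 and 182 for PDR18, 120.1, 189 and 131 for YNR071C, 94.7, 56.6 and 81.2 for HXT17, 21.8, 21.8 and 34.5 for MAN2 and 612, 389.8 and 392 for AIF1. The absence was thus seen in the sam1Δ/sam1Δ strain and not in the other strains of the series. RNA values do not tell whether the DNA of this interval was present in the strain, and that was not tested. All 5 calls held in each of the 6 fits that left out 1 library at the unadjusted cutoffs.

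**Figure D3:**
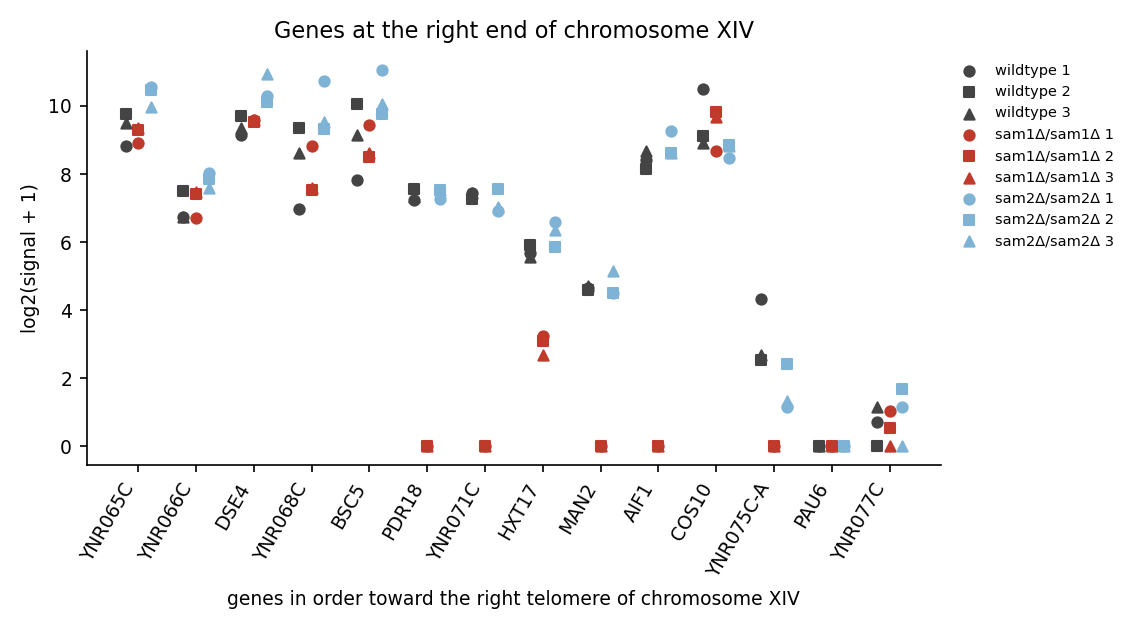
Signal of each gene near the right end of chromosome XIV in the wildtype, sam1Δ/sam1Δ and sam2Δ/sam2Δ libraries, in chromosome order, with 1 point a library and signal + 1 on a log scale. PDR18, YNR071C, MAN2 and AIF1 are at 0 in the 3 sam1Δ/sam1Δ libraries and HXT17 is at 5.40 to 8.50, while BSC5 and COS10 keep signals of at least 360 there.

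A group of neighbours near the right end of chromosome XIII was upregulated. ERR3 (chrXIII:920088-921401), which resembles enolase, was at 62.4, 61.8 and 79.6 in wildtype and 189, 263 and 271 in sam1Δ/sam1Δ (log2FC 1.80 ± 0.21, 95% interval 1.30 to 2.30, limma adjusted P = 0.089), and no sam1Δ/sam1Δ library fell below any wildtype library. SNO4 (chrXIII:918366-919079), a chaperone and glyoxalase-like protein of the DJ-1 family, was at 224, 183 and 248 in wildtype and 572, 464 and 436 in sam1Δ/sam1Δ (log2FC 1.16 ± 0.18, 95% interval 0.73 to 1.60). YMR321C, an uncharacterized gene that resembles part of SAM4, was at 37.1, 15.8 and 22.9 in wildtype and 98.8, 107 and 79.4 in sam1Δ/sam1Δ (log2FC 1.94 ± 0.33, 95% interval 1.13 to 2.75). All 3 were called in each of the 6 fits without 1 library. They have near-identical copies, and the share of their 75-base windows found elsewhere was 52.3% for ERR3 (in ERR1 and ERR2), 68.8% for SNO4 (mainly in HSP32) and 55.7% for YMR321C (in SAM4). ERR1 and HSP32 were listed at 0 in all 6 libraries, and ERR2 at 0 in all but sam1Δ/sam1Δ replicate 1 (1.06). HSP33, another copy of SNO4 (log2FC 0.09), and SAM4 (-0.18) were not called. The reads of such genes can be split between copies or listed under 1 of them. These 3 values are uncertain, and how much of them belongs to the chromosome XIII copies is not known. On the centromere side YMR320W (log2FC 0.44) and the low-affinity iron transporter FET4 (-0.24, and 0.20 without wildtype replicate 1) were not called. Beyond ERR3, YMR324C was not called either (log2FC 0.52). In sam2Δ/sam2Δ, ERR3 was at 144, 152 and 119 and SNO4 at 416, 239.6 and 285.

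Near the right end of chromosome III, YCR099C and EMA35 rose. The table lists them at 1 locus (chrIII:300832-302221), where reads could be divided between them. YCR099C was at 57.9, 114 and 98.3 in wildtype and 216, 276 and 314 in sam1Δ/sam1Δ (log2FC 1.60 ± 0.29, 95% interval 0.89 to 2.32) and EMA35 at 78.7, 155 and 115 in wildtype and 194, 317 and 406 in sam1Δ/sam1Δ (log2FC 1.38 ± 0.36, 95% interval 0.51 to 2.24). YCR101C, next to them and named after its values were seen, was at 47.5, 77.6 and 56.7 in wildtype and 69.1, 138 and 158 in sam1Δ/sam1Δ (log2FC 0.94 ± 0.36, 95% interval 0.06 to 1.82), and its signals overlapped between the strains. The YCR101C call was met in 2 of the 6 fits without 1 library, and it was lost without wildtype replicate 1 (log2FC 0.78), among others. None of their windows occurred elsewhere (0%). In sam2Δ/sam2Δ, given with no test, YCR099C was at 229, 226 and 256, EMA35 at 300, 242 and 325 and YCR101C at 99.5, 78.4 and 113. These values lay above all wildtype libraries, so higher signal at these genes was not particular to sam1Δ/sam1Δ. The glycerophosphodiester transporter GIT1 on the centromere side had a log2FC of -0.81 (0.04 without wildtype replicate 1) and ADH7 on the other side 0.05, neither called. YIL175W on chromosome IX was downregulated, from 41, 23 and 25.9 to 5.31, 3.10 and 2.16, but 100% of its windows occurred elsewhere.

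The place of the DEGs along chromosomes was counted with no test. Among the 20 tested genes nearest each of the 32 ends, 27 of 640 were DEGs (4.22%), against 43 of 5469 other genes (0.786%). The 27 included the 5 genes of the chromosome XIV interval and 3 genes each at the right ends of chromosomes XIII and III. They also included FIT2, FIT3, SIT1, ARN1, ARN2, ZRT1 and ZPS1, described below, so this count is not separate from those groups. The median log2FC of the 20 genes at an end lay between -0.16, at the right end of chromosome XIV, and 0.14. No chromosome was shifted as a whole. The median log2FC of the 16 nuclear chromosomes ranged from -0.03 to 0.01, and from -0.07 to 0.04 without wildtype replicate 1.

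Iron uptake genes made up the largest group of upregulated DEGs among the lists examined. When iron is short, the activators Aft1 and Aft2 turn on an iron regulon of cell wall proteins that hold siderophore-bound iron, siderophore transporters, the reductive uptake system and factors that spare iron. Of 26 tested members of the iron regulon, 24 had a positive log2FC (2882 of all 6109), 6 were upregulated DEGs (0.622% of all genes) and 0 were downregulated, with a median log2FC of 0.33 beside -0.01 for all genes. Without wildtype replicate 1, in the fit that partly mixes strain with the shared axis, the number of upregulated DEGs was 14 (2.95% of all genes). The median there was 0.72, and over the fits without 1 library it ranged from 0.27 to 0.72. With the axis as a covariate 7 members passed an adjusted P of 0.05. The levels of the list by library, as median deviations from the mean on the log2 scale, were -0.07, -0.25 and -0.49 in wildtype and 0.04, 0.37 and 0.30 in sam1Δ/sam1Δ.

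All 6 of these DEGs held the Aft core sequence TGCACCC, read on either strand, in the 500 bases upstream of their coding start. It occurred in 140 of 6000 such windows in the genome (2.33%) and in 21 of the 26 list members. The occurrence nearest the coding start of each called gene is shown with 25 bases on each side, on the strand of the gene and with the core in capitals, because these are the genes whose expression differed. Sequences and positions are from the R64 reference.
FIT2 (chrXV:1059375-1059431, plus strand): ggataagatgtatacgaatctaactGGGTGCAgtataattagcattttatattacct
FIT3 (chrXV:1061208-1061264, minus strand): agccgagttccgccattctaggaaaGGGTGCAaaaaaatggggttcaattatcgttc
SIT1 (chrV:27444-27500, plus strand): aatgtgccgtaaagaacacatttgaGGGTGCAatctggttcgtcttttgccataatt
TIS11 (chrXII:416800-416856, minus strand): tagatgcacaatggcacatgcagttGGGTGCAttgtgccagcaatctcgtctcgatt
ARN2 (chrVIII:10629-10685, minus strand): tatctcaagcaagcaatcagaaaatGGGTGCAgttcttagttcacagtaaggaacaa
ARN1 (chrVIII:21200-21256, minus strand): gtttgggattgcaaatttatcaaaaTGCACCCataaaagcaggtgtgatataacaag
The core lay between 124 bases (FIT2) and 440 bases (ARN2) from the coding start. A match is a description of the letters and not a measured binding site.

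The cell wall mannoproteins FIT2 and FIT3, which retain siderophore-iron at the cell surface, had the largest rises among the called members of the list. FIT2 was at 1269.8, 948 and 367 in wildtype and 1854, 4273 and 4679 in sam1Δ/sam1Δ (log2FC 2.13 ± 0.56, 95% interval 0.76 to 3.50), so that the lowest sam1Δ/sam1Δ library exceeded the highest wildtype library. The signal of FIT2 in sam2Δ/sam2Δ was 464, 344 and 1309. FIT3 was at 667, 489.7 and 399.7 in wildtype and 781, 1258 and 1214 in sam1Δ/sam1Δ (log2FC 1.06 ± 0.27, 95% interval 0.41 to 1.72). Both were called whichever library was left out, and adjusted P with the axis as a covariate was 0.035 for FIT2 and 0.0094 for FIT3.

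The siderophore transporters SIT1, ARN2 and ARN1 also rose. SIT1, which imports ferrioxamine B, was at 379, 458 and 238 in wildtype and 544, 753 and 859 in sam1Δ/sam1Δ (log2FC 1.03 ± 0.30, 95% interval 0.31 to 1.74). ARN2, which imports triacetylfusarinine C, was at 531, 516 and 441 in wildtype and 779, 744 and 867 in sam1Δ/sam1Δ (log2FC 0.68 ± 0.14, 95% interval 0.35 to 1.02), at a locus it shares with another annotated gene. ARN1, which imports ferrichrome, was at 697, 621 and 474 in wildtype and 703, 1031 and 1096 in sam1Δ/sam1Δ (log2FC 0.65 ± 0.24, 95% interval 0.08 to 1.22), with wildtype replicate 1 just below the lowest sam1Δ/sam1Δ library. The ARN1 call was met in 2 of the 6 fits without 1 library. The enterobactin transporter ENB1 was not called (log2FC 0.51).

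TIS11, whose product speeds the decay of mRNAs for iron-using proteins, was at 614, 855 and 421 in wildtype and 1092, 1065 and 1127 in sam1Δ/sam1Δ (log2FC 0.86 ± 0.26, 95% interval 0.22 to 1.49) and was called in all 6 fits without 1 library. The reductive system was not called. The ferroxidase FET3 was at 13899, 2581 and 2364 in wildtype and 4849.9, 12102 and 11219 in sam1Δ/sam1Δ (log2FC 0.99, 95% interval -0.86 to 2.83) and its partner permease FTR1 at 2741, 488 and 623 in wildtype and 821, 2354 and 2247 in sam1Δ/sam1Δ (log2FC 0.79, 95% interval -1.02 to 2.61). For both genes wildtype replicate 1 was the highest of the 6 libraries, and wildtype replicates 2 and 3 were below all sam1Δ/sam1Δ libraries. Leaving out that library gave a log2FC of 1.82 for FET3 and 1.56 for FTR1. Transcripts of the activators were not called, AFT1 at a log2FC of 0.21 and AFT2 at 0.20, and none of the 8 tested genes of iron regulation and storage was a DEG (0).

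**Figure D4:**
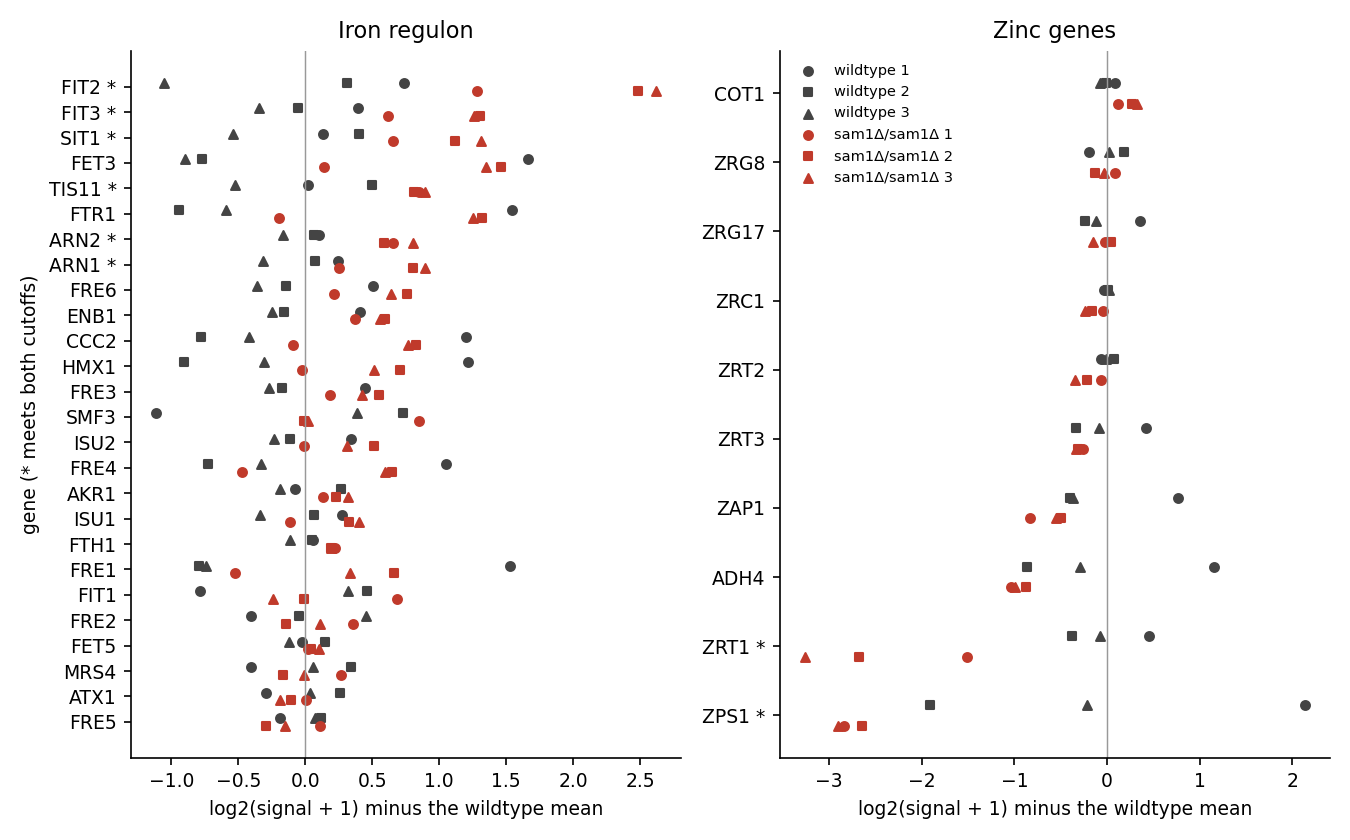
Each of the 26 iron regulon genes (left) and 10 zinc genes (right) by row, with log2(signal + 1) minus the wildtype mean on the x axis, 1 point a library, and an asterisk at DEGs. The FIT2, FIT3, SIT1, TIS11, ARN1 and ARN2 points of sam1Δ/sam1Δ lie above those of wildtype without overlap, those of ZRT1 and ZPS1 lie below, and FET3 and FTR1 overlap through wildtype replicate 1.

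Zinc genes had mostly negative log2FC values. Zap1 is the activator that turns on zinc uptake when zinc is short, and it acts through a zinc-responsive element. Of 10 tested zinc genes 9 had a negative log2FC, 2 were downregulated DEGs and 0 were upregulated, beside 0.524% downregulated of all genes. Their median log2FC was -0.25 and stayed between -0.32 and -0.20 when each library was left out. For 6 of the 10 the highest sam1Δ/sam1Δ library was below the lowest wildtype library, as for 196 of all 6109 genes. For 1 gene, COT1, every sam1Δ/sam1Δ library was above those of wildtype (log2FC 0.24).

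ZRT1 (chrVII:20978-22108), the high-affinity zinc transporter, was at 18287, 10233 and 12699.5 in wildtype and 4698, 2094 and 1395 in sam1Δ/sam1Δ (log2FC -2.48 ± 0.48, 95% interval -3.64 to -1.32). The strains were far apart, and the call held in all 6 fits without 1 library. In sam2Δ/sam2Δ ZRT1 was at 22597, 30142 and 11007. The element ACCTTNAAGGT, where N is any base and which reads the same on both strands, occurred in 9 of 6000 upstream windows (0.15%) and in 2 of the 10 list members, ZRT1 and ZRG17. Its place upstream of ZRT1, 193 bases from the coding start, is shown with the element in capitals since ZRT1 was the most abundant zinc gene called.
ZRT1 (chrVII:20749-20809, plus strand): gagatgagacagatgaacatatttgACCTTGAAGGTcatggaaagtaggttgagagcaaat

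ZPS1, a cell surface protein made when zinc is short, was at 5105, 308 and 1000.3 in wildtype and 163, 186 and 155 in sam1Δ/sam1Δ (log2FC -2.79 ± 0.95, 95% interval -5.10 to -0.48). The sam1Δ/sam1Δ libraries were close together and below all wildtype libraries, while wildtype replicate 1 stood far above the other wildtype libraries. Without that library the log2FC was -1.73 and ZPS1 was still called, but the call was met in only 2 of the 6 fits without 1 library. The zinc-regulated alcohol dehydrogenase ADH4 (log2FC -0.97) and ZAP1 itself were not called, and ZAP1 was at 1646, 732 and 752 in wildtype and 544, 687 and 662 in sam1Δ/sam1Δ (log2FC -0.62, -0.24 without wildtype replicate 1). The vacuolar zinc exporter ZRT3 (log2FC -0.30) was not called either. YKE4, a zinc transporter of the endoplasmic reticulum outside the list, was at 927, 995 and 953 in wildtype and 1112, 1880.4 and 2196 in sam1Δ/sam1Δ (log2FC 0.79 ± 0.27, 95% interval 0.15 to 1.44), and its upregulation was called in 2 of the 6 fits without 1 library.

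No gene of the methyl cycle other than SAM1 was called. Of its 11 tested genes 5 had a positive log2FC and SAM1 alone was a DEG. Methionine synthase MET6 was at 61251, 36240.0 and 29141 in wildtype and 41319, 46767 and 44255 in sam1Δ/sam1Δ (log2FC 0.13). S-adenosylhomocysteine hydrolase SAH1 had a log2FC of -0.05, adenosine kinase ADO1 0.02, the AdoMet permease SAM3 -0.41 and the AdoMet-homocysteine methyltransferase SAM4 -0.18, none called. The median member of the list was 0.50 above its mean in wildtype replicate 1 on the log2 scale and between -0.11 and -0.02 in the other 5 libraries.

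Sulfate assimilation genes, which supply the sulfur of methionine, were not DEGs. Of 17 tested, 15 had a positive log2FC with a median of 0.20, and 0 met the cutoffs. The largest were the activator MET32 (0.42), ATP sulfurylase MET3 (0.40) and sulfite reductase MET5 (0.38). Without wildtype replicate 1 these were -0.18, -0.16 and -0.04 and the list median was 0.07, so the signs of these genes depended on that library. Transsulfuration and glutathione genes had a median of -0.01 over 21 genes with 0 DEGs.

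Among 67 tested AdoMet-dependent methyltransferases, 29 had a positive log2FC, and CRG1 was the only DEG, beside 1.15% of all genes. A single call in a list of this size is near that share. CRG1, which protects cells against the drug cantharidin, was at 637, 895 and 959 in wildtype and 1239, 1302 and 1384 in sam1Δ/sam1Δ (log2FC 0.68 ± 0.19, 95% interval 0.22 to 1.13), with no overlap. Its log2FC was 0.50 without wildtype replicate 1, under the cutoff. In sam2Δ/sam2Δ CRG1 was at 2175, 2132 and 1854. The median of the list was -0.02, and it ranged from -0.22 to 0.30 when 1 library was left out.

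In polyamine synthesis, which uses decarboxylated AdoMet, the antizyme OAZ1 was the only DEG of 15 genes, beside 1.15% of all genes. Antizyme binds ornithine decarboxylase and promotes its breakdown. OAZ1 was at 232, 256 and 189 in wildtype and 284, 409 and 427 in sam1Δ/sam1Δ (log2FC 0.71 ± 0.21, 95% interval 0.19 to 1.23), and the call was met in 3 of the 6 fits without 1 library. For phospholipid methylation and inositol genes, 2 of 15 had a positive log2FC and the median was -0.21, with 0 DEGs. The inositol synthase INO1 (log2FC -0.66), phosphatidylserine synthase CHO1 (-0.47) and the phospholipid methyltransferase OPI3 (-0.44) were the lowest of the list. Without wildtype replicate 1 these values were -1.08, -0.91 and -0.72, and 4 genes of the list were downregulated DEGs (3.11% of all genes in that fit).

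Single enzymes of amino acid and carbon metabolism met the cutoffs. ALT1, the main alanine transaminase, was at 1842, 2859 and 2556 in wildtype and 5063, 4720.5 and 3962 in sam1Δ/sam1Δ (log2FC 0.94 ± 0.22, 95% interval 0.41 to 1.46), and MLS1, malate synthase of the glyoxylate cycle, was at 787, 554 and 563 in wildtype and 983, 1304 and 1307 in sam1Δ/sam1Δ (log2FC 0.92 ± 0.20, 95% interval 0.43 to 1.42). Both were called in all 6 fits without 1 library, and adjusted P with the axis as a covariate was 0.0046 for ALT1 and 0.0014 for MLS1. ALT2, the paralog of ALT1 that lacks transaminase activity, went down, at 308, 384 and 399 in wildtype and 242, 214 and 234 in sam1Δ/sam1Δ (log2FC -0.65 ± 0.15, 95% interval -1.02 to -0.28). ALT2 shares its locus in the table with YDR112W, which was also downregulated (log2FC -1.18 ± 0.19, 95% interval -1.65 to -0.72), and reads of these genes could not be told apart without strand, whose use in the counting is not given in the sources used here.

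In amino acid breakdown, the glycine cleavage subunit GCV1 was at 5543, 4712 and 3206 in wildtype and 6837, 7510.5 and 6543 in sam1Δ/sam1Δ (log2FC 0.67 ± 0.24, 95% interval 0.09 to 1.24). GCV1 was the only DEG of 26 genes, beside 1.15% of all genes. In purine synthesis, 10 of 15 genes had a positive log2FC (median 0.33), and adenylosuccinate lyase ADE13 was the DEG, at 8137, 5009.7 and 4020.3 in wildtype and 8912, 10235 and 8744 in sam1Δ/sam1Δ (log2FC 0.76 ± 0.29, 95% interval 0.07 to 1.46). Each of these calls was met in 1 of the 6 fits without 1 library. Without wildtype replicate 1, 8 purine genes were upregulated DEGs (2.95% of all genes in that fit, 0.622% with all libraries), 1 (IMD2) was downregulated and the median was 0.59. ADE17 (log2FC 0.88), ADE1 (0.67) and ADE2 (0.68) were not called in the full comparison.

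Hexose transporter and polyol dehydrogenase genes had mostly negative log2FC values, with 5 of 19 positive, a median of -0.18 and 4 downregulated DEGs (0.524% of all genes). Of the 4, HXT17 and MAN2 lay in the chromosome XIV interval. HXT2, a high-affinity glucose transporter, was at 1593, 2543 and 2368 in wildtype and 1723, 809 and 753 in sam1Δ/sam1Δ (log2FC -1.06 ± 0.37, 95% interval -1.96 to -0.17), so sam1Δ/sam1Δ replicate 1 lay within the wildtype range. HXT15 (log2FC -0.62, 95% interval -1.21 to -0.03) shared 91% of its 75-base windows with other genes, chiefly HXT16. The call was met in 2 of the 6 fits without 1 library for HXT2 and in 1 for HXT15. The low-affinity transporter HXT3 was not called (log2FC -0.75, 95% interval -1.58 to 0.08). The list held 8 downregulated DEGs without wildtype replicate 1 (3.11% of all genes in that fit), with a median of -0.47.

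YHR033W, which resembles the proline synthesis enzyme gamma-glutamyl kinase, fell in all 3 sam1Δ/sam1Δ libraries, at 812, 1064 and 843 in wildtype and 468, 390.3 and 391 in sam1Δ/sam1Δ (log2FC -1.12 ± 0.16, 95% interval -1.51 to -0.72). It was called in all 6 fits without 1 library, with an adjusted P of 0.0026 with the axis as a covariate. In sam2Δ/sam2Δ, given with no test, YHR033W was at 286, 346 and 191, also below all wildtype libraries. At the cell surface, RSB1, a transporter-like protein that protects against sphingoid bases, was at 1666, 1476 and 1644 in wildtype and 1244, 845 and 761 in sam1Δ/sam1Δ (log2FC -0.78 ± 0.21, 95% interval -1.29 to -0.26). KNH1, which acts in cell wall glucan synthesis, was at 490.5, 356 and 392 in wildtype and 256, 253 and 219 in sam1Δ/sam1Δ (log2FC -0.75 ± 0.17, 95% interval -1.16 to -0.35), and the spore wall protein SPS100 at 927, 589 and 722 in wildtype and 481, 409.8 and 431 in sam1Δ/sam1Δ (log2FC -0.74 ± 0.20, 95% interval -1.21 to -0.26). None of these overlapped between the strains, but SPS100 was not called without wildtype replicate 1 (log2FC -0.57). The cell wall mannoprotein CWP1 was upregulated by the cutoffs, at 903, 567 and 515 in wildtype and 754, 2020.0 and 2180.3 in sam1Δ/sam1Δ (log2FC 1.22 ± 0.46, 95% interval 0.11 to 2.33), but its signals overlapped and the call was met in 2 of the 6 fits without 1 library. It was the only DEG among 31 cell wall genes, beside 1.15% of all genes.

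Very short genes were frequent among the downregulated DEGs. Of the 32 downregulated genes, 7 were at most 300 bases long, against 0 of the 38 upregulated genes and 201 of all 6109 genes (3.29%). The median log2FC over all 201 short genes was -0.03. PMP1 and PMP2 encode small proteolipids bound to the plasma membrane proton pump. PMP1 was at 305, 402 and 257 in wildtype and 117, 158 and 111 in sam1Δ/sam1Δ (log2FC -1.31 ± 0.23, 95% interval -1.87 to -0.75) and PMP2 at 50.1, 121 and 76 in wildtype and 29.8, 28.4 and 19.4 in sam1Δ/sam1Δ (log2FC -1.57 ± 0.36, 95% interval -2.45 to -0.68). TOM7, a small subunit of the mitochondrial import channel, was at 52, 128 and 76 in wildtype and 19.1, 34.6 and 16.2 in sam1Δ/sam1Δ (log2FC -1.81 ± 0.43, 95% interval -2.84 to -0.77).

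The other short DEGs were named after their values were seen. YER053C-A was at 74.8, 65.5 and 86.8 in wildtype and 15.9, 26.6 and 21.6 in sam1Δ/sam1Δ (log2FC -1.80 ± 0.25, 95% interval -2.40 to -1.19), and HTL1, of the chromatin remodeler RSC, at 55.3, 55.8 and 39.8 in wildtype and 26.6, 23.9 and 21.6 in sam1Δ/sam1Δ (log2FC -1.02 ± 0.22, 95% interval -1.56 to -0.48). MRX7 (log2FC -1.19) and the ribosomal protein gene RPL41B (-0.83) were the remaining members, each called in 3 of the 6 fits without 1 library. In sam2Δ/sam2Δ, given beside these values with no test, PMP1 was at 136, 67.5 and 146, TOM7 at 49.8, 15.2 and 35.2 and HTL1 at 199, 61 and 259. LSM2, a subunit of the LSm ring of mRNA decay and splicing, was not in this size class. LSM2 was at 146, 232 and 171 in wildtype and 118, 109 and 68.6 in sam1Δ/sam1Δ (log2FC -0.90 ± 0.28, 95% interval -1.57 to -0.22). It was the only DEG of 14 Sm and LSm genes, beside 1.15% of all genes. Whether library preparation bears on transcripts of this size was not tested.

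Among regulators, IME1, the activator of entry into meiosis, was at 118, 108 and 93.5 in wildtype and 139, 207 and 275 in sam1Δ/sam1Δ (log2FC 0.90 ± 0.27, 95% interval 0.25 to 1.56). It was the only DEG of 14 meiosis genes, beside 1.15% of all genes. The kinase gene IME2 was not called (log2FC 0.27). CLB2, the mitotic cyclin, rose by a small and even amount, at 82, 88.5 and 100.1 in wildtype and 154, 151 and 136 in sam1Δ/sam1Δ (log2FC 0.70 ± 0.15, 95% interval 0.33 to 1.07), and was named after its values were seen, as were the spindle protein gene STU1 (log2FC 0.74), the osmostress kinase gene SSK22 (0.75) and the transport complex gene TRS65 (0.71), which also met the cutoffs. Of 23 mitotic checkpoint and cohesion genes 14 had a positive log2FC, with a median of 0.04 and 0 DEGs. The uncharacterized YGL262W was at 79.4, 61.8 and 80.8 in wildtype and 112, 154 and 122 in sam1Δ/sam1Δ (log2FC 0.79 ± 0.20, 95% interval 0.31 to 1.28), and at 17, 15.2 and 6.13 in sam2Δ/sam2Δ. YLR120W-A was at 50.7, 29.1 and 40.4 in wildtype and 72.3, 89.5 and 89.1 in sam1Δ/sam1Δ (log2FC 1.07 ± 0.25, 95% interval 0.47 to 1.68), at a locus it shares with another gene.

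Genes that bear on drug and nucleotide phenotypes were examined by name. AQR1, a multidrug and amino acid exporter, was at 211, 118 and 77.2 in wildtype and 133, 373 and 391 in sam1Δ/sam1Δ and did not pass (log2FC 1.10 ± 0.54, 95% interval -0.21 to 2.41). CDC21, thymidylate synthase, was at 181, 692 and 647 in wildtype and 355, 299.5 and 291 in sam1Δ/sam1Δ (log2FC -0.46 ± 0.52, 95% interval -1.73 to 0.80), and ERG11, the target of azole drugs, at 54257, 5848 and 13029 in wildtype and 13108, 35570.5 and 33089 in sam1Δ/sam1Δ (log2FC 0.63 ± 0.86, 95% interval -1.45 to 2.72), neither called. In all 3 genes wildtype replicate 1 lay apart from wildtype replicates 2 and 3, on the side of sam1Δ/sam1Δ or beyond it. Without it each was called, with a log2FC of 1.49 for AQR1, -1.09 for CDC21 and 1.51 for ERG11. That fit partly mixes strain with the shared axis. ERG11 took a log2FC of -0.095 when wildtype replicate 2 was left out, so its sign was set by which library entered. Among 30 multidrug transporter genes and regulators, 17 had a positive log2FC, and the DEGs were PDR18 and RSB1, both downregulated (0.524% of all genes).

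Of the 41 lists, 28 held no DEG (0), and for 26 the sign of the median changed when 1 library was left out. The widest ranges belonged to lists of the shared axis. The median log2FC of 27 ergosterol genes was 0.17, with 24 positive and 0 DEGs, and ranged from -0.24 to 0.66. For 48 ribosome biogenesis genes it was 0.03, from -0.35 to 0.66, and for 29 general stress genes -0.18, from -0.84 to 0.14. For 25 heat shock genes it was -0.11, from -0.67 to 0.28. Most ribosomal protein genes had a small negative log2FC, with 3 of 75 large-subunit genes positive (median -0.15) and 4 of 56 small-subunit genes positive (median -0.17). Those medians were 0.07 and 0.07 without wildtype replicate 1, so the direction of the ribosomal protein genes flipped with that library. Under median-of-ratios, TMM and upper-quartile scaling they stayed below 0.

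**Figure D5:**
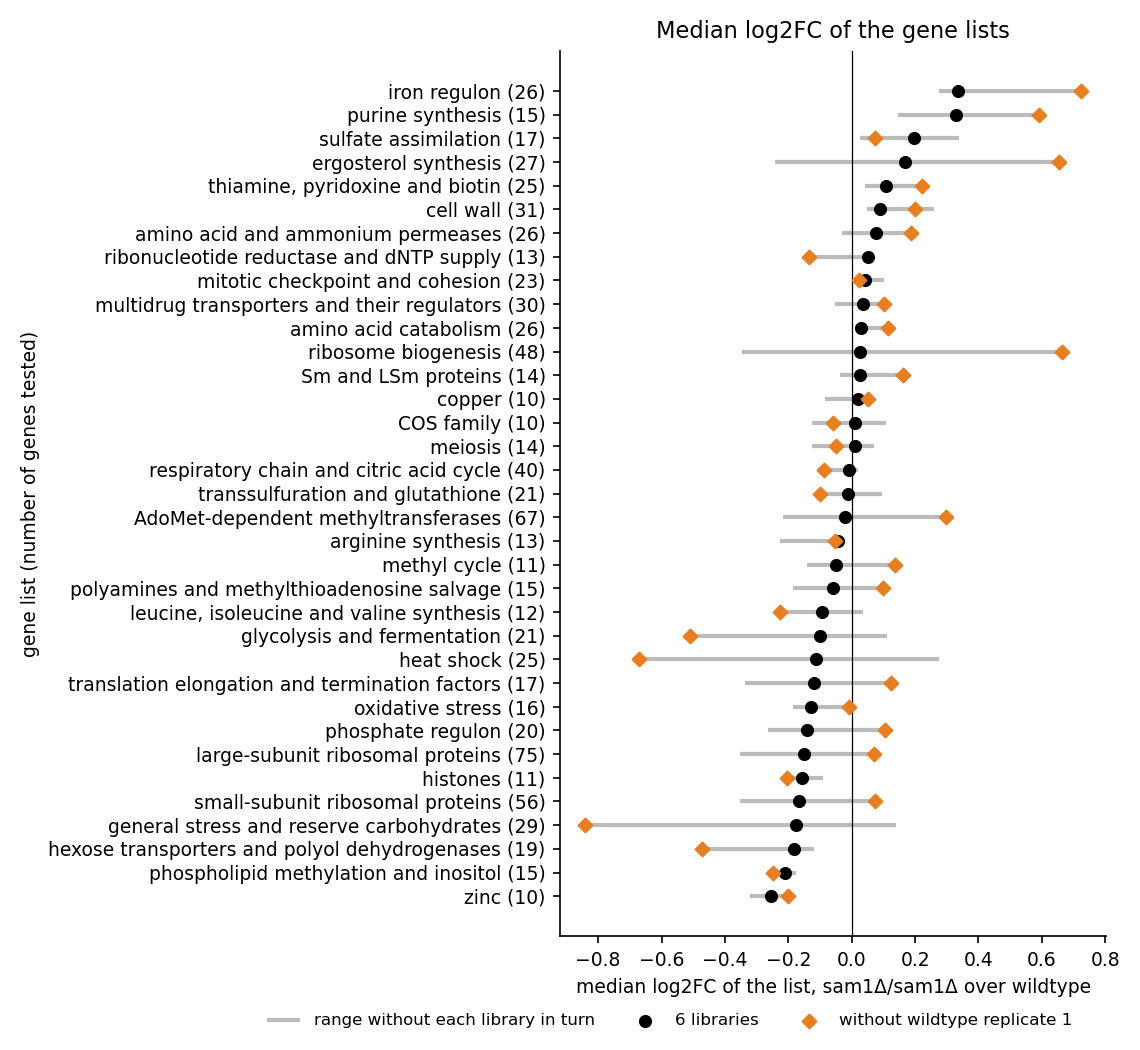
Median log2FC (x axis) of each gene list with at least 10 tested genes (rows), with all 6 libraries (black points), without wildtype replicate 1 (orange diamonds) and as the range when 1 library is left out in turn (grey bars). The iron regulon (0.33) and purine synthesis (0.33) stay above 0, zinc (-0.25) stays below 0, and the bars of ergosterol synthesis, ribosome biogenesis and general stress genes cross 0.

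Genes that MATa/MATα diploids normally keep silent were checked against the label. The a-factor gene MFA1 was at 15, 1.21 and 4.22 in wildtype and 4.25, 7.53 and 9.72 in sam1Δ/sam1Δ, and the alpha-factor gene MF(ALPHA)1 was at 56.6, 52.1 and 54.9 in wildtype and 44.6, 35.4 and 38.9 in sam1Δ/sam1Δ, so both pheromone genes were low in all 6 libraries. Of the tested genes, 7 are specific to haploids, 4 to a cells and 4 to alpha cells, and none was a DEG (0). They came from lists of 9, 6 and 4 genes. Some had clear signal, with a mean over the 6 libraries of 389 for the haploid-specific AXL1. The a-specific BAR1 and ASG7 had means of 123 and 42.8. Low signal in both pheromone genes therefore does not show that these lists were silent. The strain marker genes tested were not DEGs either, with log2FC values from -0.44 for LYS2 to 0.68 for ADE2. ADE2 (1.25) and CAN1 (0.66) met the cutoffs without wildtype replicate 1.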

How the data were processed

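RNA-Seq was analysed for 3 wildtype and 3 sam1Δ/sam1Δ libraries, grouped by their labels. According to the methods of the study, the authors prepared stranded polyA libraries, sequenced them as single reads, aligned them to R64 with TopHat2 2.0.13 and normalized them with Cufflinks and Cuffnorm 2.2.1. The deposited signal values are estimated reads divided by a library size factor. From them, log2(signal + 1) was compared by limma 3.58.1 with a mean-variance trend (R 4.3.3), two-sided and without further scaling, for genes at 10 or more in at least 3 libraries. DEGs had an unadjusted P no higher than 0.05 and a log2FC of 0.58 or more in size, the cutoffs of the study, whose own test needs the mapped reads. Benjamini-Hochberg adjustment covered all 6109 genes. Errors after ± are standard errors of the log2FC. The steps between low values gave the depth (9.31 to 23.8 M reads a library), and precision was taken from the spread between replicates.

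The members and the 41 gene lists, written from general knowledge, were chosen with earlier results of these data known. Genes named in the text were SAM1, SAM2, the neighbours of SAM1 and every gene past adjustment. Also named were the 15 largest rises and 15 largest falls among non-overlapping DEGs with a mean signal of at least 50. The remaining names were genes listed at 0 in one strain and those beside them, up to 5 members of a list, and AQR1, CDC21, CRG1 and ERG11. Sequence shared between genes and upstream motifs were searched in R64 with Python 3.11.15. The fit was tested on simulated data. Other pseudocounts, filters and scalings, a replicate block and fits without each library were tried.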

Additional observations from a re-analysis of the deposited data

How the results depend on the processing

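The count of 70 DEGs stayed within 1.5 times under other pseudocounts (70 and 69), no filter (93), a mean signal of at least 50 (51), median-of-ratios (70), TMM (70) and upper-quartile (67) scaling, all 9 libraries in 1 fit (65) and genes alone at their locus (59). It moved to 160 with the shared axis as a covariate, an alternative added after seeing the data, and to 6 with adjusted in place of unadjusted P. With that covariate 99 genes were upregulated and 61 downregulated, and 74 passed adjustment. A mean signal of at least 50 left 18 downregulated DEGs. Requiring a signal under 10 in place of 0 in each sam1Δ/sam1Δ library raised the genes counted from 4 to 8, among them HXT17 and RPL41B, which were listed above 0. Leaving out 1 library gave 39 to 370 DEGs, 19 to 180 upregulated and 20 to 190 downregulated, 4 to 5 genes past adjustment, 5 to 14 called iron regulon members and 463 to 1921 genes without overlap between the strains. The lowest DEG counts came without sam1Δ/sam1Δ replicate 3 and the highest without wildtype replicate 1. Signs reversed for several genes that were not DEGs, among them COS10, BSC5, FET4, GIT1, ADH7, SAM4, MET32, MET3 and MET5. The log2FC of SAM2 ranged from -0.33 to 0.27, that of VTA1 from -0.12 to 0.18 and that of ERG11 from -0.095 to 1.51 when 1 library was left out, and both positive values of SAM2 (0.27, 0.01) and both negative values of VTA1 (-0.12, -0.01) came without wildtype replicate 1 or sam1Δ/sam1Δ replicate 1. The cause was not tested. The shared axis did not follow replicate numbers, since the deviations of same-numbered libraries correlated at -0.85, -0.79 and -0.61. These correlations largely restate that axis and cannot tell whether same-numbered libraries were handled together. The replicate block gave 51 DEGs, 50 of them shared with the 70, and 4 genes past adjustment. Count models planned as alternatives (edgeR, DESeq2 and limma-voom) were not run, because genes at shared loci hold fractions of reads and whole reads could not be recovered for the whole table. Depth limits statements on genes near a signal of 1 read.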

Other observations

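With the shared axis as a covariate, 41 genes outside the 70 DEGs passed a limma adjusted P of 0.05, 20 higher and 21 lower in sam1Δ/sam1Δ, and they were named after these values were seen. These P values are too small, because the covariate came from the same libraries. NCE103, carbonic anhydrase, was at 11154, 904 and 1441 in wildtype and 2134, 9586 and 8513 in sam1Δ/sam1Δ (log2FC 1.19, adjusted P = 0.0014 with the covariate and 1 without it). PUT4, the proline permease, was at 3396, 316 and 266 in wildtype and 487, 2224 and 2127 in sam1Δ/sam1Δ (log2FC 1.00, adjusted P = 0.033 with the covariate). GAP1, the general amino acid permease, was at 6274, 832 and 1080.5 in wildtype and 1304, 4596 and 4993 in sam1Δ/sam1Δ (log2FC 0.80, adjusted P = 0.012 with the covariate). In these permease genes wildtype replicate 1 was high and wildtype replicates 2 and 3 were low. The plasma membrane proton pump isoform PMA2, related to the pump that PMP1 and PMP2 bind, was lower, at 868, 228 and 206 in wildtype and 120.1, 158 and 173 in sam1Δ/sam1Δ (log2FC -1.20, adjusted P = 0.039 with the covariate). Without wildtype replicate 1 the log2FC of PMA2 was -0.54, under the cutoff, and that of NCE103 was 2.29, of PUT4 2.18 and of GAP1 1.71.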
